A study of Mus musculus with 2 samples.

Results

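The 9 genes described here encode the colony-stimulating factors, their receptor chains and 2 related ligands: Kitl, Il34, Csf1, Csf2 and Csf3 among the ligands, and Csf1r, Csf2ra, Csf2rb and Csf3r among the receptors. They were taken by symbol from the 32285 genes of a pair of single-cell count tables, and each symbol matched 1 row. Csf1 (M-CSF) and Il34 are the ligands of the receptor tyrosine kinase Csf1r, on which macrophages depend for survival and osteoclasts for their formation. Csf2 (GM-CSF) signals through Csf2ra paired with the shared beta chain Csf2rb, which also serves interleukin-3 and interleukin-5 receptors, and Csf3 (G-CSF) signals through Csf3r to drive neutrophil production. Kitl (stem cell factor) is the ligand of Kit, and in bone marrow it reaches blood-forming progenitors from endothelial cells and Lepr-positive stromal cells.

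Both libraries came from the temporomandibular joint (TMJ) of WT C57BL/6 mice that the labels give as 8 to 10 weeks old, 1 library after injection of PBS into the joint and 1 after injection of complete Freund's adjuvant (CFA), an oil emulsion with mycobacterial material that provokes joint inflammation. The mice were female and the tissue (n = 3 for each condition) was taken 3 weeks after injection, as the methods describe. The suspension held cells of bone (condyle and temporal bone), of the disc, and of muscle and ligament, and it was passed over CD45 beads to take out immune cells, so the immune cells described are those that were left. The files do not mark which cell came from which mouse, there is 1 library per condition, and no difference between PBS and CFA has a replicate check or a p-value.

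The PBS library held 7671 barcodes with 51146169 unique molecular identifiers (UMIs, which count captured RNA molecules) and the CFA library 5709 barcodes with 53517206. The libraries stood apart in hemoglobin transcripts, which took 20.7% of PBS and 7.90% of CFA UMIs. Cells with at least 500 genes, at most 10% mitochondrial and at most 1% hemoglobin UMIs were kept, 2667 from PBS (median 7022 UMIs) and 4014 from CFA (median 6509.5 UMIs), and 10 barcode sequences occurred in both libraries, in 3 kept PBS and 8 kept CFA cells. Clustering without the 9 genes gave 35 clusters, of which 28 carried markers of 13 classes, written here as endothelial-like and so on. The joint was represented by chondrocyte-like cells with Col2a1 and Acan (86 from each library), tenocyte-like cells with Tnmd and Thbs4 (153 and 110) and osteoblast- or osteocyte-like cells with Runx2, Sp7 and Alpl (72 and 114). Within the last class Bglap was a detected marker of cluster 27 (35 PBS and 28 CFA cells) but not of cluster 24 (37 and 86). The chondrocyte-like cells differed in make-up. In PBS 58 lay in cluster 20 and 28 in cluster 32, led by Cytl1 and Mia, while in CFA all 86 lay in cluster 20. The CFA library held 311 macrophage-like cells against 18 in PBS, and 273 osteoclast-like macrophages against 1, so for these classes a PBS level rests on very few cells. The other 7 clusters held 9.71% of PBS and 15.7% of CFA cells and are called by number and leading genes.

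Over all kept cells, the ligands and the receptor chains were held mostly by different cell classes. Kitl had 10316 PBS and 10108 CFA UMIs, of which endothelial-like cells held 77.5% and 81.6%. Il34 had 924 and 767 UMIs, with mural-like cells as the main holder, and Csf1 had 1089 and 2157 UMIs spread over fibroblast-like, endothelial-like and many other cells. The receptor chains were counted mainly in myeloid cells, though for PBS Csf2rb the endothelial-like class was the largest single holder (35.8%). Totals of the receptor chains were higher in CFA, which held more myeloid cells. Csf1r had 262 PBS and 6564 CFA UMIs, Csf2ra 337 and 2842, Csf2rb 427 and 5779, and Csf3r 240 and 2668. Levels within some classes were higher in CFA too and are given below. Csf3 had 42 and 104 UMIs and Csf2 had 0 and 2.

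**Figure D1:**
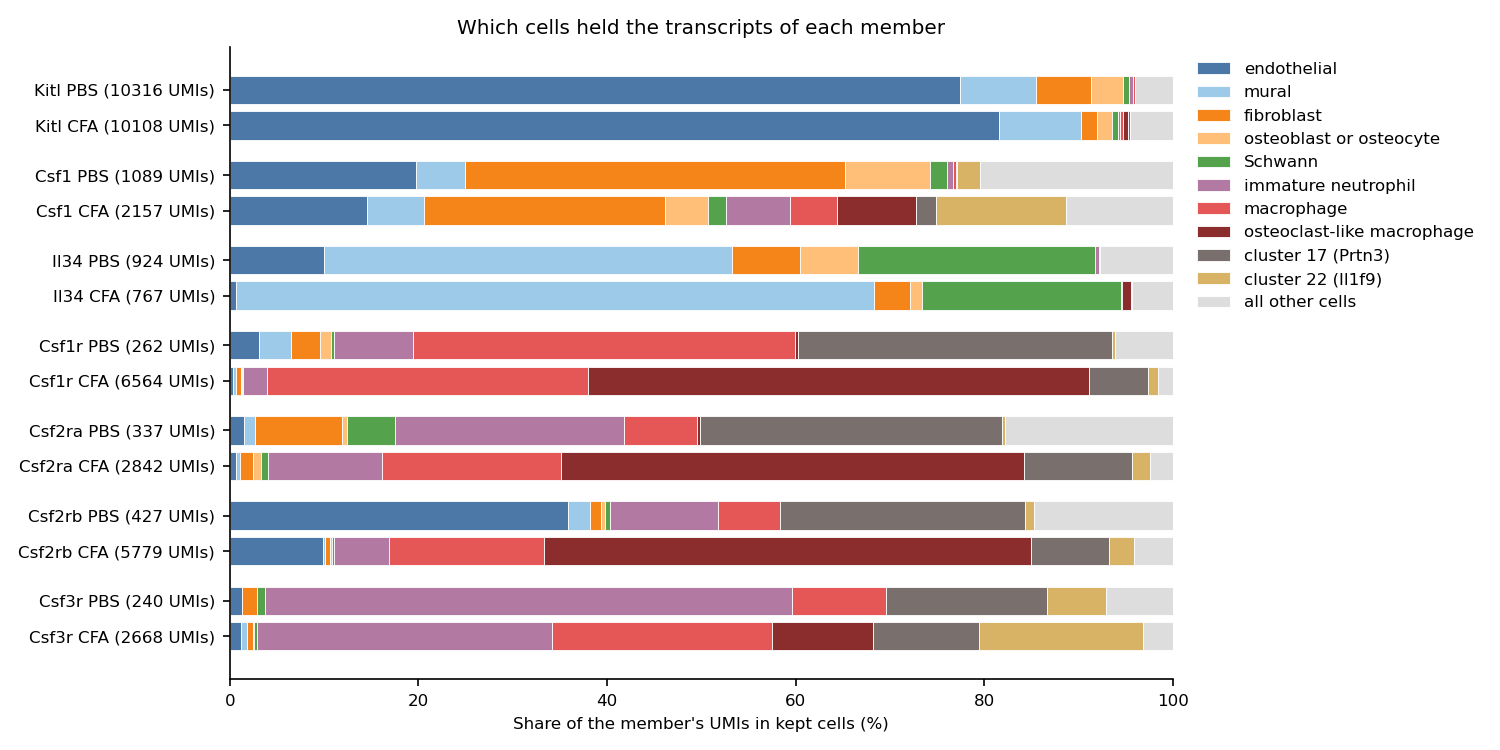
Bars show, for each gene and library, the share in percent of the gene's UMIs held by each cell class, with the number of UMIs beside the name. Endothelial-like cells hold 77.5% (PBS) and 81.6% (CFA) of Kitl, mural-like cells 43.3% and 67.7% of Il34, and osteoclast-like macrophages 53.2% of CFA Csf1r.

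Levels are given in CPM, the UMIs of a gene among all UMIs of its class and library, scaled to 1000000, and intervals in parentheses are 95% exact intervals (Poisson for levels, Clopper-Pearson for shares of cells, conditional binomial for CFA to PBS ratios) that cover counting error only. The share of cells with a UMI is given as counted and, for the main comparisons of PBS and CFA, again after each cell was thinned to 1000 UMIs, while the shares in background classes are as counted unless stated. Cell classes that should lack a gene served as its background, the B lineage-like class for the ligands Kitl, Il34 and Csf1 (median 3734 UMIs per PBS and 4036 per CFA cell) and the Schwann-like class for the receptors and for Csf2 and Csf3 (3827 and 3433).

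Kitl (ENSMUSG00000019966, GRCm38 chromosome 10, 100015630 to 100100416, plus strand) was read mainly in the vessel wall. In endothelial-like cells its level was 1365 CPM (1335 to 1395) in PBS and 1198 (1173 to 1225) in CFA, a CFA to PBS ratio of 0.878 (0.851 to 0.906), and 96.4% of 755 PBS and 95.9% of 1042 CFA cells held a UMI (68.9% and 69.7% after thinning). Endothelial-like cells had a median of 5402 PBS and 4420 CFA UMIs, and in the B lineage-like background 4.78% of 209 PBS cells and 0 of 149 CFA cells held a Kitl UMI, the latter allowing a share of up to 2.01%. Among the endothelial clusters, the level differed more by vessel type than by library. The capillary cluster, with Gpihbp1 and Fabp4, had 1217 in PBS and 1279 in CFA, and the arterial cluster, with Sema3g and Gja5, had 1497 and 1300. Clusters 0 and 9, led by Gm12002 and Hdac9, were highest at 1817 and 1948 in PBS and 1860 and 1723 in CFA. The venular cluster, with Plvap and Selp, was the lowest of the 5 in both libraries, at 799.7 and 729.1. As a mean over cells of CPM instead of a sum, the class ratio of Kitl was 0.971. Cluster 13 carried endothelial genes at a median of 1190 UMIs and stayed unnamed, and there Kitl was 578.9 (459.7 to 719.5) in PBS and 890.9 (794.7 to 995.4) in CFA.

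**Figure D2:**
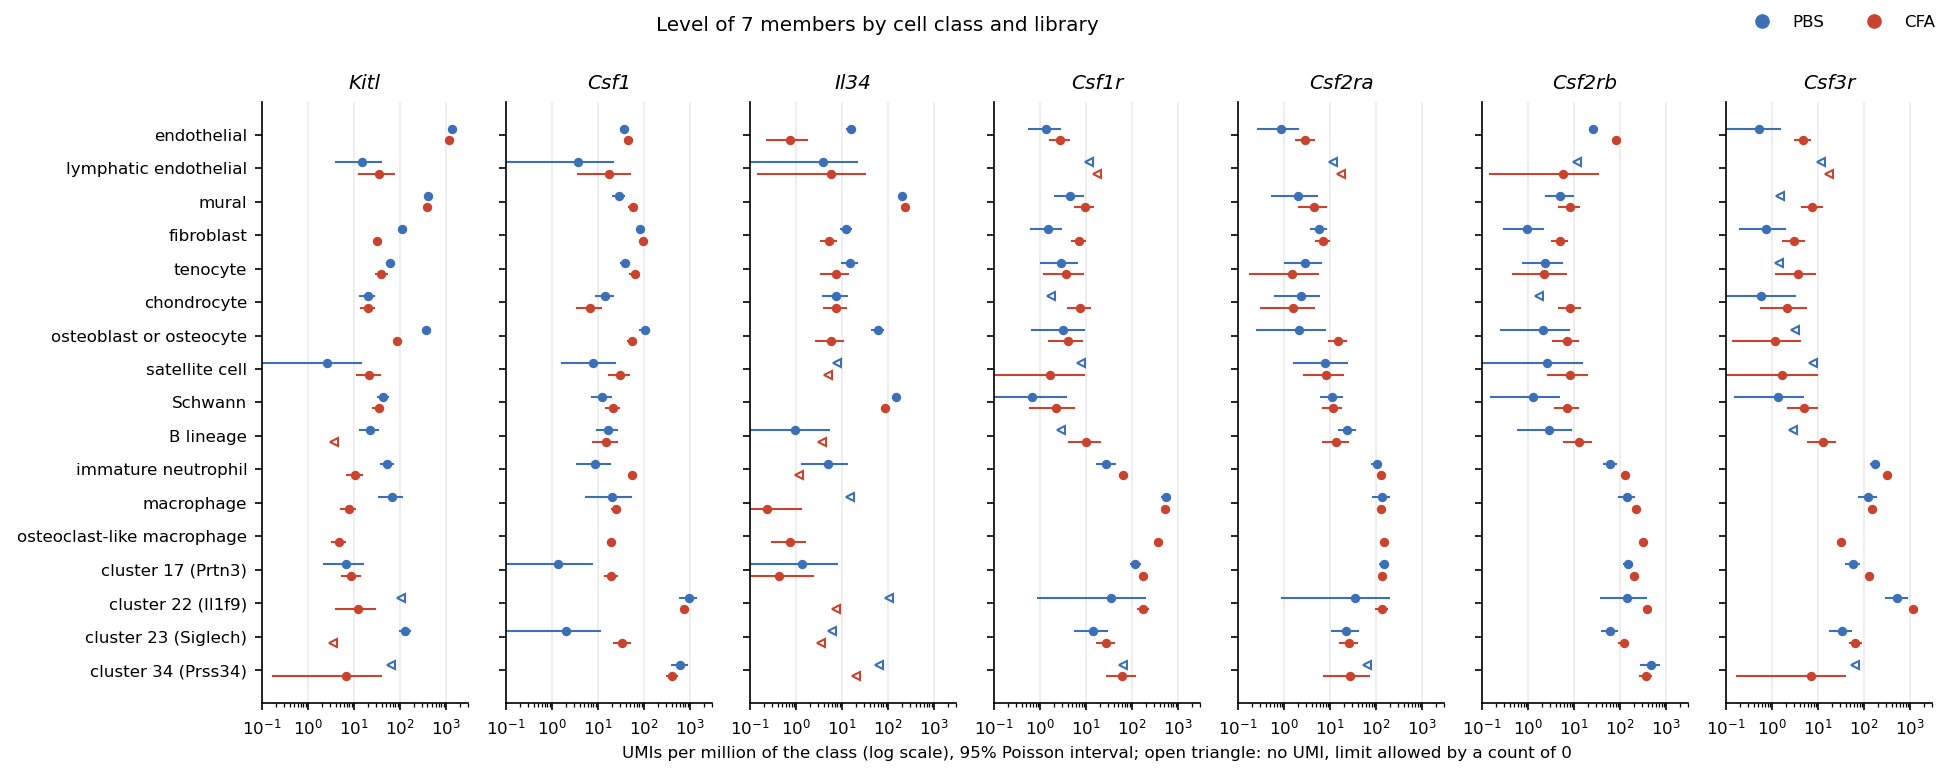
Points show the level of 7 genes in CPM (log scale) for PBS and CFA in each class and in 4 unnamed clusters, with 95% Poisson intervals, and open triangles mark the limit that a count of 0 allows (the single PBS osteoclast-like macrophage is not drawn). Kitl is highest in endothelial-like cells (1365 in PBS and 1198 in CFA), Il34 in mural-like cells, and Csf1r in macrophage-like cells (521.5 in CFA).

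Kitl differed more between the libraries in some stromal classes. Fibroblast-like cells had 112.3 CPM (103.6 to 121.7) in PBS and 31.7 (27.2 to 36.7) in CFA, a ratio of 0.282 (0.237 to 0.334), and the share of cells with a UMI was 30.5% against 16.7% (10.4% and 4.34% after thinning). The lower CFA level was seen in each fibroblast cluster. In cluster 1, led by Apod and Inmt, Kitl was 176.3 in PBS and 79.5 in CFA (ratio 0.451). In the Pi16 adventitial cluster it was 101.4 and 17.3 (ratio 0.171), and in cluster 15, led by Angptl1 and Cilp, 46.9 and 2.11 (ratio 0.0450, 0.00535 to 0.168, from 78 and 2 UMIs). Some Kitl-positive fibroblast-like cells, 15 of 148 in PBS and 2 of 63 in CFA, also held UMIs of at least 3 endothelial markers. Without such cells the class ratio was 0.323 (0.270 to 0.385), and it was 0.492 in cluster 1 and 0.192 in the Pi16 cluster. In cluster 15 they made up 7 of the 16 Kitl-positive PBS cells. Without them 20 PBS and 2 CFA UMIs were left there, a ratio of 0.160 (0.0182 to 0.660).

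In osteoblast- or osteocyte-like cells Kitl was 374.6 CPM (336.6 to 415.7) in PBS and 88.5 (75.1 to 103.6) in CFA, a ratio of 0.236 (0.194 to 0.286), which was 0.206 without cells that carried endothelial markers and 0.141 without the hemoglobin limit. Cluster 27, led by the osteocalcin genes Bglap and Bglap2, had 569.4 and 247.7, and cluster 24, led by Dok6 and Gpc5, had 132.8 and 15.03. Cluster 27 was not uniform in Kitl. Cells with UMIs of all of Lepr (leptin receptor), Cxcl12 (a chemokine that retains progenitors in marrow) and Adipoq (adiponectin) numbered 14 of 35 in PBS and 3 of 28 in CFA. In these cells Kitl was 1390 in PBS and 1634 in CFA, while in the other cells of the cluster it was 123.8 and 159.6, so within each kind of cell the CFA value was not below the PBS value. Bglap went the other way, at 81.5 in PBS and 0 in CFA (upper bound 111.6) in the Lepr, Cxcl12 and Adipoq cells, against 62841 and 28603 in the others. In PBS the 14 cells with Lepr, Cxcl12 and Adipoq held 256 of the 354 Kitl UMIs of the class. The split was made after the values had been seen, and the number of such cells is small.

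Mural-like cells, which wrap vessels and express Myh11, Rgs5 and Notch3, had 415.9 CPM of Kitl (388.0 to 445.3) in PBS and 387.9 (362.7 to 414.5) in CFA, a ratio of 0.933 (0.847 to 1.03). The clusters of this class differed in direction, with 583.4 and 406.9 (ratio 0.698, 0.626 to 0.777) in cluster 12, where Myh11 and Acta2 led, and 177.2 and 339.1 (ratio 1.91, 1.54 to 2.38) in cluster 19, led by Actg2 and Rgs5. The direction in the whole class depends on cells that also carried endothelial markers, which made up 36 of 123 Kitl-positive cells in PBS and 24 of 164 in CFA. Without them the level was 238.9 in PBS and 336.4 in CFA, a ratio of 1.41 (1.23 to 1.62). The ratio without them was 1.08 (0.920 to 1.27) in cluster 12 and 1.87 (1.40 to 2.50) in cluster 19. Tenocyte-like cells had 62.0 and 39.6 CPM (ratio 0.639, 0.455 to 0.886), and this direction also turned without cells that held endothelial markers, to 1.68 (1.09 to 2.59). Kitl in immature neutrophil-like cells, 52.9 in PBS and 10.6 in CFA, was carried in PBS by 10 cells of which 9 held at least 3 endothelial markers, and 1 PBS and 4 CFA UMIs were left without such cells. In the background class Kitl had 23 UMIs in 10 PBS cells and 0 in CFA, where the limit was 3.77 CPM. The part of free or admixed endothelial RNA in the low Kitl levels of the PBS library was not tested beyond these values.

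Il34 (ENSMUSG00000031750, GRCm38 chromosome 8, 110741829 to 110805924, minus strand) was held mainly by mural-like and Schwann-like cells. Mural-like cells had 201.6 CPM (182.4 to 222.4) in PBS and 230.1 (210.7 to 250.8) in CFA, a ratio of 1.14 (0.9997 to 1.30), and 61.9% and 64.3% of cells held a UMI (19.9% and 18.3% after thinning). Cluster 19 stood above cluster 12 in both libraries, with 315.3 and 461.0 against 121.8 and 140.4, and its CFA to PBS ratio was 1.46 (1.23 to 1.74). In the B lineage-like background 1 of 209 PBS cells and 0 of 149 CFA cells held an Il34 UMI, the latter allowing up to 2.01%. With classes set cell by cell from the markers, the mural-like ratio was 0.944, on the other side of 1.

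Schwann-like cells, the glia that ensheath peripheral axons, had the next highest level of Il34. It was 151.8 CPM (132.9 to 172.7) in PBS and 88.6 (75.5 to 103.4) in CFA, a ratio of 0.584 (0.475 to 0.717), with a UMI in 38.8% of 307 and 27.1% of 377 cells (13.7% and 9.34% after thinning). Each of the 3 larger Schwann clusters had the lower level in CFA. The ratio was 0.696 (0.521 to 0.925) in cluster 3, with Ncmap and Cntf among its leading genes, and 0.665 (0.460 to 0.956) in cluster 14, with Kcna1 and Pou3f1. In the nonmyelinating cluster 26, with Cadm2 and Scn7a, it was 0.716 (0.377 to 1.34), an interval that includes 1. The class ratio was lower than that of each of these clusters. The class also holds cluster 33, led by Fabp7, with 3 PBS and 16 CFA cells. Their median was 12106 and 15245 UMIs, against 3827 and 3433 in the class, so cluster 33 weighs more in the CFA sum. Its part in the class ratio was not tested. As a mean over cells of CPM instead of a sum, the class ratio was 0.844.

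The remaining Il34 was lower in CFA than in PBS in osteoblast- or osteocyte-like cells (60.3 against 5.71 CPM, ratio 0.0947, 0.0431 to 0.187) and in fibroblast-like cells (12.4 against 5.13, ratio 0.414, 0.258 to 0.649). In fibroblast-like cells the mean over cells gave a ratio of 1.06, so this direction rests on how the cells were weighted. Of the 57 osteoblast- or osteocyte-like UMIs in PBS, 54 lay in the 14 cells with Lepr, Cxcl12 and Adipoq described above. Endothelial-like cells had 92 Il34 UMIs in PBS and 5 in CFA (15.7 against 0.727 CPM, ratio 0.0462, 0.0147 to 0.112), and 66 of the 92 lay in 12 cells of the venular cluster. Of these 12 cells, 11 also held UMIs of at least 3 mural markers, against 5 of the other 98 cells, and their median was 25730 UMIs against 10046. Without cells that carried mural markers, 5 PBS and 3 CFA UMIs were left in the whole endothelial-like class.

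Csf1 (ENSMUSG00000014599, GRCm38 chromosome 3, 107741048 to 107760469, minus strand) was spread over many cell classes. Fibroblast-like cells had 81.3 CPM (73.8 to 89.2) in PBS and 97.6 (89.7 to 106.1) in CFA, a ratio of 1.20 (1.06 to 1.36), and held a UMI in 48.2% and 60.3% of cells (6.44% and 9.49% after thinning). They supplied 40.3% of PBS and 25.6% of CFA Csf1 UMIs. The Pi16 adventitial cluster was the highest of the fibroblast clusters, at 111.2 and 105.9, with a UMI in 70.0% and 78.5% of cells (8.46% and 9.20% after thinning). The B lineage-like background had 16.3 and 15.1 CPM, with a UMI in 5.26% and 7.38% of cells.

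Csf1 in endothelial-like cells was 36.7 (32.0 to 42.0) in PBS and 45.5 (40.6 to 50.8) in CFA, a ratio of 1.24 (1.04 to 1.48). Mural-like cells had 28.7 (21.8 to 37.2) and 58.1 (48.6 to 68.9), a ratio of 2.02 (1.47 to 2.81), and the higher CFA level was seen in cluster 12 (24.02 and 49.2) and in cluster 19 (35.5 and 80.8). Tenocyte-like cells had 39.1 and 62.8 (ratio 1.61, 1.17 to 2.20). In osteoblast- or osteocyte-like cells Csf1 was lower in CFA, at 103.7 and 56.5 (ratio 0.545, 0.408 to 0.728), but without the hemoglobin limit the ratio was 1.51. The clusters of this class differed in direction. Csf1 was 172.0 and 108.5 (ratio 0.631, 0.447 to 0.884) in cluster 27, which held 35 PBS and 28 CFA cells. In cluster 24, with 37 and 86 cells, it was 18.97 and 32.6 (ratio 1.72, 0.791 to 4.25, an interval that includes 1). How far the mix of clusters sets the class ratio was not tested. Chondrocyte-like cells had 14.3 and 6.76, no higher than the background. Satellite-like cells, the stem cells of muscle, had 7.89 and 29.9 from 3 and 18 UMIs.

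Among immune cells, the highest Csf1 level lay in cells that the markers left unnamed. Cluster 22, led by Il1f9, Acod1 and Hcar2 and carrying the neutrophil genes S100a9, Cxcr2, G0s2 and Mmp9, had 745.2 CPM (662.8 to 834.9) in 129 CFA cells, of which 60.5% held a UMI. It supplied 297 of the 2157 CFA Csf1 UMIs (13.8%) and held 0.897% of the CFA UMIs of all genes. In PBS its 5 cells supplied 27 of 1089 Csf1 UMIs (2.48%) and held 0.105% of the UMIs of all genes. The Csf1 level of cluster 22 was thus high in both libraries, though the PBS value rests on 5 cells. Cluster 34, led by Prss34 and Mcpt8, which are genes of basophils, had 614.1 in 7 PBS cells and 413.2 in 12 CFA cells. Macrophage-like cells had 25.3 and osteoclast-like macrophages 19.4 in CFA, near the background. Immature neutrophil-like cells had 8.82 in PBS and 55.7 in CFA (ratio 6.31, 2.99 to 16.0), of which 1 cell held 40 of the 147 CFA UMIs. That ratio was 0.714 without the hemoglobin limit and 18.4 when the top 5% of doublet scores were left out, so its direction depends on the cells kept.

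The region before the start of Csf1 is shown because Csf1 was the ligand whose level was at least 2-fold higher in CFA in mural-like cells, and because among the 5 genes of the set with such a window it alone had a match to a kappa B motif (GGG, 2 bases of any kind and TTTCC), a form of the binding motif of NF-kappa B factors. The 250 bases before the start are at chr3:107760470-107760719 (GRCm38.p6, minus strand, RefSeq), and the capitals mark the match, which lies on the opposite strand.
Csf1: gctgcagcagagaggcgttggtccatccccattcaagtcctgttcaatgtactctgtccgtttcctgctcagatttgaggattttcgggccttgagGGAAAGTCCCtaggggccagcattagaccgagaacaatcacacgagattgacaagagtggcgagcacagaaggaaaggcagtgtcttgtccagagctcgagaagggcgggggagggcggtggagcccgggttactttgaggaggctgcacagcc
Windows of this kind were at hand for 5 of the 9 genes, Csf1, Csf2, Csf2ra, Csf3r and Kitl. On both strands, the kappa B motif occurred in 1.41% of 32851 windows of the same length and in 1 of these 5. The TATA motif TATAAA occurred in 12.4% of windows and among the 5 in Kitl. A match is a description of the letters and was not tested for binding.

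Csf2 (ENSMUSG00000018916, GRCm38 chromosome 11, 54247271 to 54249667, minus strand) was all but unseen. There was no UMI in PBS and 1 UMI each in a macrophage-like and an osteoclast-like cell in CFA, and in the Schwann-like background there was none in either library, which allows up to 1.96 CPM in PBS and 1.64 in CFA. In endothelial-like cells a count of 0 allows up to 0.513 CPM in PBS and 0.436 in CFA, and in fibroblast-like cells 0.555 and 0.531. Il3, which shares the Csf2rb chain, had 0 UMIs in both libraries. In these classes Csf2 was not detectable at this depth, which does not show that it is absent.

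Csf3 (ENSMUSG00000038067, GRCm38 chromosome 11, 98701263 to 98703629, plus strand) was rare and held by few cells. In PBS 37 of its 42 UMIs lay in 2 cells of cluster 18, whose leading genes include Car1 and Car2 and also the gland secretion genes Obp1a and Mucl2. Which kind of cell these 2 were was not tested. In CFA 104 UMIs lay in 40 cells, 30 of them in 2 cells. Cluster 17 held 36 (9 of 130 cells, 15.1 CPM, 10.5 to 20.8), endothelial-like cells 18, macrophage-like cells 17 and immature neutrophil-like cells 14. Cluster 17 was led by the granule protease genes Prtn3, Ctsg and Elane and also carried 6 monocyte markers, among them Ly6c2, Ccr2 and F13a1. It stayed unnamed because more of its leading genes were markers of granulocyte-monocyte progenitors. All 18 endothelial-like UMIs were in the venular cluster, in 10 of 187 cells (6.45 CPM, 3.82 to 10.2), against 1 UMI in 110 PBS cells of that cluster. The Schwann-like background had none in either library.

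Csf1r (ENSMUSG00000024621) marked the macrophage lineage. Macrophage-like cells with C1qa and Mrc1 had 538.2 CPM (440.6 to 650.9) in the 18 PBS cells and 521.5 (500 to 543.6) in the 311 CFA cells, with a UMI in 88.9% and 92.6% of cells (44.4% and 40.1% after thinning). Osteoclast-like macrophages with Acp5, Dcstamp and Mmp12 had 374.1 (361.8 to 386.8) in CFA, with a UMI in 271 of 273 cells. The macrophage-like class held 33.96% and the osteoclast-like class 53.2% of the CFA UMIs. The level in the macrophage-like class thus had overlapping intervals in both libraries, and the total of 6564 CFA against 262 PBS UMIs went with 311 against 18 and 273 against 1 cells of these classes.

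Csf1r was also read in cluster 17, which carried both monocyte and progenitor genes, and in neutrophil-related cells. Cluster 17 held 33.2% of the PBS Csf1r UMIs. Cluster 17 had 119.0 (95.3 to 146.8) in PBS and 170.6 (154.5 to 188.0) in CFA, with a UMI in 75.7% and 81.5% of cells (10.8% and 17.7% after thinning). Immature neutrophil-like cells had 27.7 (17.4 to 42.0) and 64.8 (55.4 to 75.2), a ratio of 2.34 (1.49 to 3.83) that was 1.33 without the highest doublet scores and 24.2 without the hemoglobin limit, and cluster 22 had 175.6 in CFA. The Schwann-like background was 0.654 from 1 UMI in PBS and 2.19 from 4 UMIs in CFA, with a UMI in 0.326% and 1.06% of cells.

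Csf2ra (ENSMUSG00000059326, GRCm38 chromosome 19, 61223957 to 61228429, minus strand), the ligand-specific chain of the GM-CSF receptor, lay between 103.3 and 149.5 CPM in the myeloid classes and clusters that follow. It was 132.0 (86.2 to 193.4) in PBS and 126.1 (115.7 to 137.2) in CFA macrophage-like cells, 147.7 and 136.3 in cluster 17, 103.3 and 129.6 in immature neutrophil-like cells, and 149.5 (141.8 to 157.6) in CFA osteoclast-like macrophages. In cluster 22 it was 135.5 in CFA. The Schwann-like background was 11.1 and 11.5, above that of the other chains, with a UMI in 5.54% and 3.71% of cells. Cluster 24, the osteoblast- or osteocyte-like cluster led by Dok6, had 0 PBS UMIs in 37 cells and 23 CFA UMIs in 17 of 86 cells (19.2 CPM), at least 2.70-fold higher when PBS is set to 3 UMIs.

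The region before the Csf2ra start is shown because the receptor chains were shared by the myeloid classes, and because it was searched for GAGGAA, the core of the motif bound by the myeloid factor PU.1 (Spi1). The 250 bases are at chr19:61228419-61228668 (GRCm38.p6, minus strand, RefSeq) and reach 11 bases into the first exon of the GENCODE annotation. The capitals mark 2 neighbouring matches, of which the last lies within those 11 exon bases and the other reaches into them.
Csf2ra: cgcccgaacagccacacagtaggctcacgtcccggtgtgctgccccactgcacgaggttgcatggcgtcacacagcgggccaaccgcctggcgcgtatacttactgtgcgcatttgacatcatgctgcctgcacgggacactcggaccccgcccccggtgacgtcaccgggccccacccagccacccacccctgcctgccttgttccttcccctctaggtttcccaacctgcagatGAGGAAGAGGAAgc
Searched on both strands, GAGGAA occurred in 23.3% of the 32851 windows and in 2 of the 5 windows of the set, those of Csf2ra and Csf3r. Spi1 itself had 388.6 CPM in CFA macrophage-like cells and 303.0 in CFA osteoclast-like macrophages.

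Csf2rb (ENSMUSG00000071713, GRCm38 chromosome 15, 78325752 to 78353847, plus strand), the signalling chain shared by the GM-CSF, interleukin-3 and interleukin-5 receptors, was read in myeloid cells and in some vessels. Osteoclast-like macrophages had 319.5 (308.1 to 331.2) in CFA and held 51.6% of all CFA UMIs. Macrophage-like cells had 142.2 (94.5 to 205.5) in PBS and 222.5 (208.6 to 237.1) in CFA, cluster 17 had 151.8 and 200.7 (ratio 1.32, 1.07 to 1.64), and cluster 22 had 383.9 in CFA. Cluster 34 had 465.9 (292.0 to 705.4) in PBS, where it held 5.15% of the Csf2rb UMIs beside 0.174% of the UMIs of all genes. In CFA its 12 cells held 53 Csf2rb UMIs (0.917%) beside 0.327% of the UMIs of all genes. Immature neutrophil-like cells had 61.8 and 127.3, a ratio of 2.06 (1.52 to 2.84) that was 5.46 without the hemoglobin limit and 1.76 as a mean over cells. In the Schwann-like background it was 1.31 and 7.11, from 2 and 13 UMIs, with a UMI in 0.651% and 1.59% of cells.

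Both chains of the GM-CSF receptor were often found in the same cell. A UMI of Csf2ra and of Csf2rb was held by 253 of 273 CFA osteoclast-like macrophages (92.7%), by 52.7% of CFA macrophage-like cells, and in cluster 17 by 28 of 37 PBS cells (75.7%, or 2.70% after thinning) and 90 of 130 CFA cells (69.2%, or 0.769%). Median depth differed between these classes, at 31705 UMIs in osteoclast-like and 12246 in macrophage-like CFA cells, and after thinning to 1000 UMIs their shares were 3.66% and 3.26%. The difference between these classes was therefore not seen at equal depth.

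In the endothelium, Csf2rb was higher in CFA than in PBS, at 82.5 (75.9 to 89.6) against 26.1 (22.2 to 30.6), a ratio of 3.16 (2.64 to 3.80), with a UMI in 15.6% against 8.87% of cells (3.94% and 2.02% after thinning). The venular cluster accounted for most of it. Its level was 67.0 (54.5 to 81.5) in PBS and 165.3 (150.5 to 181.0) in CFA, a ratio of 2.47 (1.98 to 3.09), with a UMI in 33.6% of 110 and 60.4% of 187 cells (9.09% and 13.9% after thinning), and it held 100 of the 153 PBS and 461 of the 568 CFA endothelial-like UMIs. The arterial cluster had 16.3 and 54.8, a ratio of 3.37 (1.95 to 6.13). In the capillary cluster (9.98 and 15.4, ratio 1.54, 0.723 to 3.31) and in cluster 0 (18.1 and 15.01, ratio 0.828, 0.401 to 1.70) the intervals included 1. The myeloid genes Tyrobp and Spi1 were also higher in CFA endothelial-like cells, Tyrobp at 1.71 in PBS and 23.8 in CFA and Spi1 at 1.37 and 3.34. Without cells that held a UMI of either gene, the Csf2rb ratio was 3.01 (2.50 to 3.64) in the class and 2.38 (1.90 to 3.00) in the venular cluster.

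A pair of related receptors differed in the venular cluster too. Csf2rb2, the mouse paralog of Csf2rb that serves interleukin-3, was 23.5 (16.3 to 32.6) in PBS and 71.3 (61.8 to 82.0) in CFA, a ratio of 3.04 (2.12 to 4.49). The last 500 bases of the Csf2rb and Csf2rb2 transcripts were 83.1% identical over 473 aligned bases, and how reads were divided between these genes was not tested. Kit, the receptor of Kitl, was 21.4 (14.7 to 30.3) in PBS and 92.5 (81.5 to 104.5) in CFA, a ratio of 4.31 (2.98 to 6.44). Kit was not higher in CFA throughout the endothelium. The capillary cluster had 11.3 in PBS and 0.904 in CFA (17 and 1 UMIs), cluster 0 had 13.1 and 4.41 (13 and 5 UMIs) and cluster 9 had 10.96 and 5.995 (9 and 4 UMIs), and in the arterial cluster there were 0 and 4 UMIs. A UMI of Kitl and of Kit was held by 16 of 110 PBS and 65 of 187 CFA cells of the venular cluster (0.909% and 3.21% of cells after thinning). Kitl was held by 98 and 177 of these cells and Kit by 18 and 67, so nearly any cell with a Kit UMI would also hold one of Kitl.

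**Figure D3:**
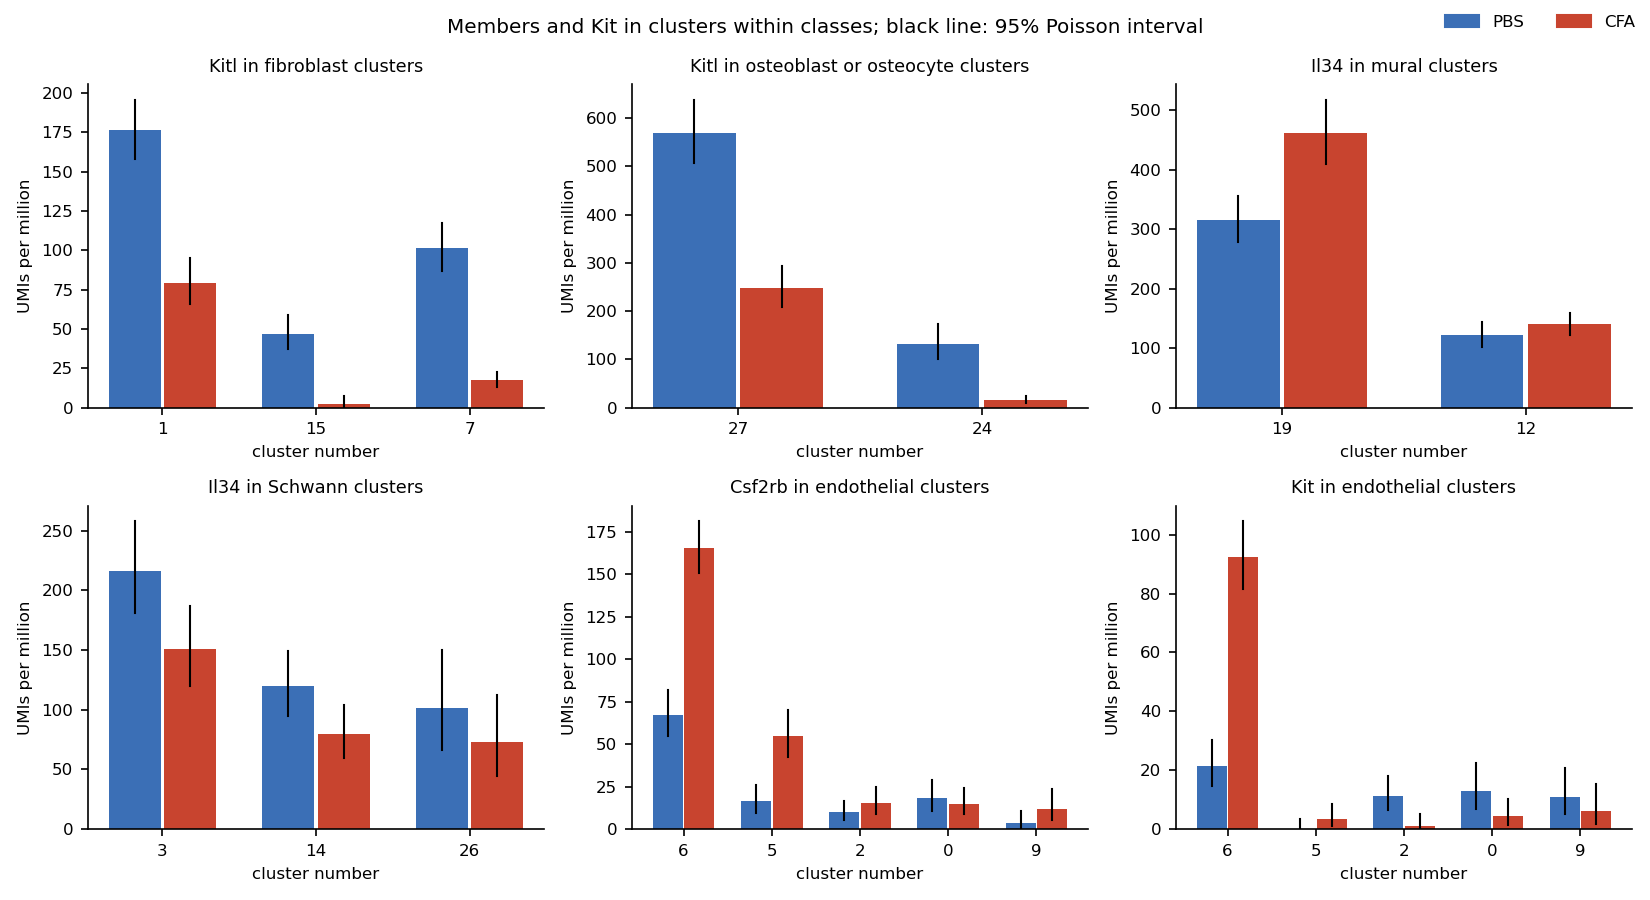
Bars show the level in CPM, from 0, of Kitl in fibroblast and osteoblast clusters, Il34 in mural and Schwann clusters, and Csf2rb and Kit in endothelial clusters, for PBS and CFA, with black lines for 95% Poisson intervals. Kitl is lower in CFA in the 3 fibroblast clusters, and Csf2rb and Kit are highest in the CFA venular cluster (cluster 6, led by Plvap), at 165.3 and 92.5.

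Csf3r (ENSMUSG00000028859, GRCm38 chromosome 4, 126024550 to 126044440, plus strand), the G-CSF receptor, was highest in neutrophil-related cells. Cluster 22 had 1159 (1056 to 1270) in CFA with a UMI in 83.7% of cells, and 524.7 (293.7 to 865.4) in its 5 PBS cells. Immature neutrophil-like cells with Ngp, Ltf and Camp had 168.9 (141.5 to 200) in PBS and 316.7 (295.6 to 338.9) in CFA, a ratio of 1.88 (1.56 to 2.27), with a UMI in 67.2% and 73.0% of cells (19.05% and 28.8% after thinning). Without the hemoglobin limit that ratio was 4.04. Cluster 17 had 56.1 and 125.9, a ratio of 2.24 (1.62 to 3.19), and macrophage-like cells had 121.9 and 145.0. In osteoclast-like macrophages the level was 30.7 (27.3 to 34.5), below that of the macrophage-like class. The Schwann-like background was 1.31 and 4.92, with a UMI in 0.651% and 1.33% of cells.

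**Figure D4:**
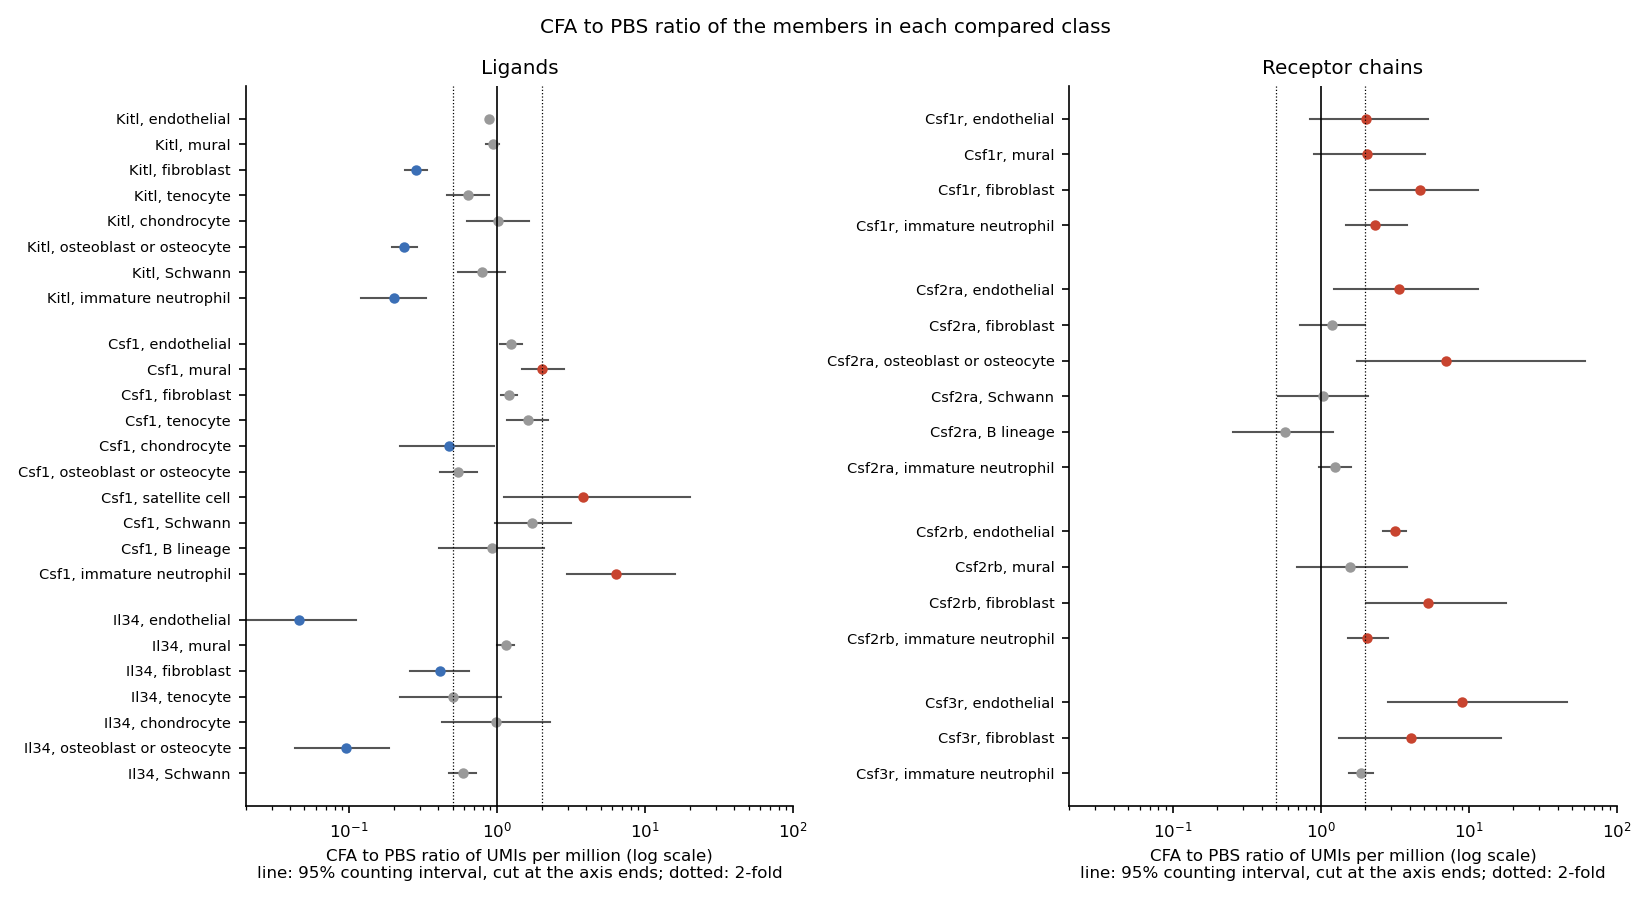
Points show the CFA to PBS ratio of CPM (log scale) of each gene in each compared class with enough UMIs in both libraries, ligands on the left and receptor chains on the right, with 95% counting intervals, and dotted lines mark 2-fold. Kitl in fibroblast-like (0.282) and osteoblast- or osteocyte-like cells (0.236) lies below the lower line and Csf2rb in endothelial-like cells (3.16) above the upper one.

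The CFA to PBS ratio was set beside that of all genes in the 10 classes with at least 50 cells in each library, for genes with at least 20 UMIs in the class over both libraries. A low gene whose UMIs lie mainly in 1 library reaches that minimum through that library, so such ratios are large by construction. In endothelial-like cells 8 of the 9 genes had enough UMIs, all but Csf2, of which 5 were at least 2-fold higher in CFA (Csf2rb, Csf1r, Csf2ra, Csf3 and Csf3r) and 1 was at least 2-fold lower (Il34). Of 12681 genes in that class 5.09% were higher and 5.93% lower by that much. The median ratio was 2.59 over the 8 genes and 1 over all genes. Apart from Csf2rb, the higher genes had 3 to 8 PBS and 18 to 32 CFA UMIs. Of these, Csf2ra (0.854 and 2.91 CPM) and Csf3r (0.512 and 4.65) lay below the Schwann-like background of their own library, and Csf1r (1.37 and 2.76) was near it. The endothelial-like Csf1r ratio of 2.02 had an interval that includes 1 (0.844 to 5.33), and without cells that held Tyrobp or Spi1 it was 1.89 (0.751 to 5.14), which ends the 2-fold call.

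Fibroblast-like cells had 7 genes with enough UMIs, 3 higher (Csf1r, Csf2rb and Csf3r) and 2 lower (Kitl and Il34), beside 8.70% and 5.09% of 13225 genes, with a median ratio of 1.20 against 1.009 over all genes. The receptor chains in this class were near background, Csf1r at 1.48 in PBS and 6.90 in CFA, and without cells that held Tyrobp or Spi1 the Csf1r ratio was 1.29 (0.442 to 3.85) in place of 4.66. Immature neutrophil-like cells had 6, of which Csf1, Csf1r and Csf2rb were higher and Kitl lower, beside 6.35% and 13.8% of 9067 genes, and the median ratio was 1.97 against 0.902. In mural-like cells Csf1 and Csf1r of 5 genes were higher and 0 lower, beside 3.79% and 5.06%, and Csf1r there rested on 9 PBS and 21 CFA UMIs, with an interval that includes 1.

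Osteoblast- or osteocyte-like cells had 4 genes, with Csf2ra higher and Kitl and Il34 lower, beside 8.69% and 5.98%. Schwann-like cells had 4 genes and none past 2-fold in either direction, beside 7.90% and 3.02%. Of 3 genes each, B lineage-like cells had 1 lower (Kitl) and none higher, beside 5.48% and 3.44%, and chondrocyte-like cells had 1 lower (Csf1) and none higher, beside 7.68% and 4.51%. None of 3 was past 2-fold in tenocyte-like cells, where 4.05% of all genes were higher and 6.07% lower. Satellite-like cells had enough UMIs of Csf1 alone, which was higher, beside 8.21% higher and 7.04% lower. Each of these counts rests on 1 to 8 genes.

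Of 28 genes listed for the same pathways (partner chains, adaptors, transcription factors and feedback inhibitors), 23 had enough UMIs in endothelial-like cells. There 7 were higher by at least 2-fold, Kit, Csf2rb2, Tyrobp, Spi1, Irf8, Cebpa and Tnfrsf11a, and 1 was lower, Ptprz1, beside 5.09% and 5.93% of all genes. Tyrobp and Spi1 among them are the myeloid genes used above to leave out cells. Fibroblast-like cells had 22, with 8 higher and 1 lower, beside 8.70% and 5.09%. The gene with the most UMIs among the 8 was Runx1, a transcription factor, at 105.7 in PBS and 507.9 in CFA (ratio 4.81, 4.39 to 5.27), and in the Pi16 adventitial cluster at 67.6 and 581.0. Immature neutrophil-like cells had 21, with 5 higher and 1 lower (beside 6.35% and 13.8%), mural-like cells 21 with 3 and 1 (3.79% and 5.06%), and Schwann-like cells 15 with 3 and 0 (7.90% and 3.02%). Osteoblast- or osteocyte-like cells had 18 with 2 higher and 2 lower (8.69% and 5.98%), B lineage-like 19 with 3 and 1 (3.44% and 5.48%), and chondrocyte-like 16 with 4 and 1 (4.51% and 7.68%). Tenocyte-like cells had 18 with 2 and 0 (4.05% and 6.07%), and satellite-like cells 11 with 3 and 0 (8.21% and 7.04%). Tyrobp, an adaptor of myeloid receptors, was among the higher genes in 7 of the 10 classes. The median ratio of the listed genes ran from 0.894 in osteoblast- or osteocyte-like to 1.71 in satellite-like cells over the 10 classes, and that of all genes from 0.902 in immature neutrophil-like to 1.08 in osteoblast- or osteocyte-like cells. In endothelial-like cells it was 1.25 against 1 over all genes, and in fibroblast-like cells 1.47 against 1.009.

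Other receptors for the ligands were found in stromal cells and macrophages. Ptprz1, a receptor phosphatase that binds Il34, had 620 PBS and 1107 CFA UMIs, of which Schwann-like cells held 202 and 472. Its level in these cells was 132.2 in PBS and 258.2 in CFA. Most of the Schwann-like UMIs lay in cluster 26 (448.2 and 375.5) and cluster 33, led by Fabp7 (2140 in 3 PBS cells and 1038 in 16 CFA cells). Both clusters thus had the lower value in CFA, unlike the class. Sdc1 (syndecan-1), which also binds Il34, was 341.9 (330.1 to 354.0) in osteoclast-like macrophages and 101.1 in macrophage-like cells of CFA. Cish, a feedback gene of STAT5 signalling, had more UMIs in endothelial-like cells than in any other of the 10 compared classes, at 17.3 in PBS and 17.4 in CFA (ratio 1.011, 0.769 to 1.33). It had the lower CFA level in fibroblast-like cells, at 7.40 and 3.01 (ratio 0.406, 0.216 to 0.733), and in immature neutrophil-like cells the ratio of 0.434 had an interval that includes 1 (0.172 to 1.15).

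The genes whose pattern over 20 class and library profiles was most like that of each member were taken from 5314 genes by Pearson correlation of log2 levels, as a description only, since the profiles share libraries. For Kitl they were Epas1 (0.94), Pparg (0.94) and Itga1 (0.93), and those for Il34 included Adgrg6 (0.93) and Csrp1 (0.92). Csf1 had less close companions, among them Gm4951 (0.84) and C1ra (0.75). For Csf1r they were Arg2 (0.97), Clec4e (0.97) and Clec4d (0.96), for Csf2ra Itgal (0.95), Cotl1 (0.95) and Atp8b4 (0.94), for Csf2rb Klhl2 (0.94), Lrg1 (0.94) and Upp1 (0.93), and for Csf3r Cd33 (0.99), Adam8 (0.99) and Il18rap (0.99). The macrophage-like classes are not among these profiles, because PBS held under 50 of their cells. Over 35 cluster profiles, added after the data were seen, the closest genes were Cd68 for Csf1r (0.97), Itgam for Csf2ra (0.94), Tnfrsf1b for Csf2rb (0.91) and Il1r2 for Csf3r (0.97).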

How the data were processed

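Single-cell RNA sequencing libraries of 1 PBS and 1 CFA sample were analysed. The authors deposited raw UMI counts per gene and barcode, and per the submitters' processing notes these were made with Cell Ranger 7.0.1 on mm10. The annotation release and whether intronic reads were counted are not given in the sources used here. The filter given in the methods (500 genes, 10% mitochondrial UMIs) leaves 5845 of 7671 PBS and 4353 of 5709 CFA barcodes. A limit of 1% hemoglobin UMIs was added here. The CFA table holds fewer barcodes than the study describes cells for that condition.

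Seurat 5.3.0 (SeuratObject 5.2.0, sctransform 0.4.2, Matrix 1.6.5, R 4.3.3) normalized each library with SCTransform and integrated them on 2994 of 3000 genes, after 6 of the 9 genes described were taken out, and clustered on 200 principal components at a resolution of 1.5, after the study's methods, which used another Seurat version. A cluster was named when at least 3 markers of a class had a UMI in at least 25% of its cells and a level at least 2-fold that of other cells, with 10 CPM added, and no other class had more markers among its 10 leading genes. A cluster stayed unnamed where its median UMI count, relative to that of its library, was under 33.3% and none of the class's markers were among those 10 genes, as in cluster 13. Scrublet (scanpy 1.11.5) marked 21 PBS and 2 CFA cells as doublets with its automatic threshold. That is too few in CFA to be of use, so doublets were kept and the 5% highest scores (133 and 200 cells) were left out as an alternative.

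UMIs were summed per class and library with Python 3.11.15, numpy 2.4.6, scipy 1.17.1 and pandas 2.3.3, and matplotlib 3.10.9 drew the figures. No test was made between conditions. Depth sets the precision through the counts behind each value, and UMIs of 1 library are not replicates. A count of 0 was given the limit of 3 counts. The ratio step was tested on simulated endothelial-like counts of 12661 genes with 200 changed, of which 96.0% were recovered past 2-fold and 95.5% of intervals covered the true ratio. The changes were set well past 2-fold and the counts were drawn from the Poisson model that the intervals assume. This checks the computation only and says nothing on spread between cells or mice. The genes named are the 9 members, the 28 listed pathway genes and, per member with at least 200 UMIs, the 3 most alike genes, some of which are not reported here. Marker genes and genes leading a cluster are named beside them. Members, marker and pathway lists were chosen with earlier results of these data known. Gene positions are those of GENCODE vM21 on GRCm38, and promoter sequences are from RefSeq, GRCm38.p6. Alternatives covered the filters, the clustering, the class definition, the denominator, the weighting of cells and doublets. The unnamed cluster 18, led by Car1 and gland secretion genes such as Obp1a, was left unnamed by a choice made after the data were seen.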

Additional observations from a re-analysis of the deposited data

Results flagged for a closer look

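The CFA to PBS ratio of Csf1 lay past 2-fold in opposite directions in different cell classes, but most of these ratios rest on low levels or on the processing. It was 6.31 (2.99 to 16.0) in immature neutrophil-like cells, 2.02 (1.47 to 2.81) in mural-like cells and 3.79 (1.11 to 20.1) in satellite-like cells, and 0.473 (0.222 to 0.960) in chondrocyte-like cells. The difference between the classes was not tested, since each condition has 1 library. The satellite-like ratio rests on 3 PBS and 18 CFA UMIs, the chondrocyte-like one on 25 and 13, and the immature neutrophil-like one on 7 and 147, of which 40 were in 1 cell. The chondrocyte-like levels, 14.3 and 6.76 CPM, were no higher than the B lineage-like background of 16.3 and 15.1, and the immature neutrophil-like ratio was 0.714 without the hemoglobin limit. The mural-like ratio rests on 57 and 131 UMIs and ran from 1.76 to 2.03 in the alternatives tried, on both sides of 2-fold.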

How the results depend on the processing

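Over 25 ratios and 10 alternatives, 224 values could be compared with those reported: 191 lay within the reported counting interval, 31 lay outside it, and 2 of at least 2-fold changed direction (a ratio under 2-fold that crossed 1 is not counted as such). The latter were Il34 in fibroblast-like cells as a mean over cells (1.06) and Csf1 in immature neutrophil-like cells without the hemoglobin limit (0.714). Among ratios with at least 100 UMIs in each library, the mean over cells gave 0.844 for Il34 in Schwann-like cells, 2.08 for Csf2rb and 0.971 for Kitl in endothelial-like cells, 1.40 for Csf1 and 0.354 for Kitl in fibroblast-like cells and 1.08 for Kitl in mural-like cells. Classing each cell on its own gave 0.840 for Kitl in endothelial-like, 0.340 in fibroblast-like and 1.04 in mural-like cells, and 0.944 for Il34 in mural-like cells. Without the hemoglobin limit Csf3r in immature neutrophil-like cells was 4.04, and Kitl was 0.834 in mural-like and 0.141 in osteoblast- or osteocyte-like cells, where Csf1 was 1.51. Log-normalized clustering gave 0.843 for Kitl in mural-like cells, and leaving out cells with endothelial markers, chosen after seeing the data, gave 1.41. With fewer UMIs, Kitl moved to 0.495 (cells classed singly) and 0.497 (doublets out) in Schwann-like cells, to 0.438 (no hemoglobin limit) and 1.66 (mean over cells) in chondrocyte-like cells, and to 1.42 (mean), 1.10 (doublets out) and 1.68 (endothelial markers out) in tenocyte-like cells. Il34 in endothelial-like cells was 0.846 after log-normalized clustering, 0.141 with cells classed singly and 0.465 without cells with mural markers. In immature neutrophil-like cells the hemoglobin limit mattered for every gene followed, with 24.2 for Csf1r, 3.77 for Csf2ra, 5.46 for Csf2rb and 0.0470 for Kitl without it. The share of PBS UMIs also moved without that limit, to 63.4% of Kitl in endothelial-like, 30.7% of Csf1 in fibroblast-like and 18.2% of Csf3r in immature neutrophil-like cells. The causes were not tested. At least 1000 genes, other denominators, resolution 0.8 and leaving out shared barcodes moved no ratio outside its interval, although fewer classes could be followed at that resolution (23 ratios). Of 36 shares of cells, 28 moved with thinning to 2000 UMIs, since deeper cells show more. No paired analysis was possible because each condition has 1 sample. Depth limits Csf2 and Csf3 and the PBS values of the macrophage classes.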

Other observations

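A UMI of Csf1 and of its receptor Csf1r was held by 61 of 273 CFA osteoclast-like macrophages (22.3%) and by 27 of 311 CFA macrophage-like cells (8.68%). Csf1r alone was held by 271 and 288 cells of these classes, so nearly any cell with a Csf1 UMI would also hold one of Csf1r. The Csf1 level in both classes was near that of the B lineage-like background. After thinning to 1000 UMIs the shares were 1.10% and 0.326%. In cluster 22 a UMI of both was held by 17 of 129 CFA cells (13.2%, or 3.20% after thinning). A UMI of Csf1r and of Csf3r was held by 63.3% of CFA macrophage-like cells and by 78 of 130 CFA cells of cluster 17. After thinning these shares were 4.56% and 3.08%.

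Flt3, a receptor of early progenitors related to Csf1r and Kit, was found mainly in cluster 23, led by Siglech and Stat4, at 194.6 CPM (157.6 to 237.6) in PBS and 237.3 (205.7 to 272.5) in CFA. In that cluster Csf2rb was 60.8 (41.0 to 86.8) and 119.3 (97.1 to 144.9), and Csf3r was 32.4 and 64.9. Of its 64 Kitl UMIs in PBS, 63 lay in 1 cell.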
